A study of Sus scrofa with 15 samples.

Results

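C1q, the recognition molecule of the classical complement pathway, and a set of macrophage genes were followed in pig kidney after ischemia and reperfusion. The set named 9 genes, the C1q chains C1QA, C1QB and C1QC and the macrophage genes LYZ, CD14, CD163, CD68, CHI3L1 and ADA2. They were chosen by their log2 signals in these groups, with earlier results of the same arrays known, so no p value of a member is printed for a difference between groups, and the number of members called is only set beside the share of all probes called. Through RefSeq accessions, 8 of the 9 genes had at least 1 probe (3 C1q chains and 5 macrophage genes), out of 3020 genes with a symbol and 43603 probes on the array. CD68 was not analysed here.

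C1q is assembled from A, B and C chains that are encoded by separate genes. Unlike most complement proteins, which the liver secretes, C1q is made largely by tissue macrophages and dendritic cells. It binds immune complexes and dying cells, activates the proteases C1r and C1s and thereby starts the cleavage of C4 and C2. In the RefSeq annotation of the pig assembly Sscrofa11.1 the genes C1QA, C1QC and C1QB are direct neighbours, an arrangement shared with other mammals.

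The kidneys came from 15 female Yorkshire pigs at 20 weeks of age, with 1 array per pig and 5 pigs per group. In every pig the left kidney was removed first, and later the artery and vein of the remaining right kidney were clamped for 90 min, so all groups, the control included, carry a single kidney that went through ischemia. The control group had no preconditioning. The rIPCe group had remote ischemic preconditioning (2 cycles of clamping an external iliac artery for 10 min, each followed by reperfusion) immediately before renal ischemia, and the rIPCl group had the same cycles 24 h before it. Tissue was taken at 72 h of reperfusion. No pig without renal ischemia is among the samples, and whole kidney tissue was used, so that more cells of a type and more RNA per cell cannot be told apart in any result.

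Signals are given as log2 of the scanner's processed intensity after quantile normalization over the 15 arrays, so that a difference of 1 is a doubling. They compare arrays for a given gene and not genes with each other. All 15 arrays had between 62.2% and 74.2% of spots well above background, the median being 67.7% in control, 70.6% in rIPCe and 73.2% in rIPCl. Each of the 8 genes was well above background on all 15 arrays at the probe used. The median log2 difference over all probes was -0.03 for rIPCl versus control, -0.01 for rIPCe versus control and -0.01 for rIPCl versus rIPCe. Arrays were on 4 slides of which slide 1 held only control arrays (replicates 1 to 4) and slide 4 only rIPCl arrays (replicates 2 to 5). Slide 2 held control replicate 5 with rIPCe replicates 1 to 3, and slide 3 held rIPCe replicates 4 and 5 with rIPCl replicate 1. Slide and group can therefore largely not be told apart for rIPCl versus control.

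On 2 arrays the members stood apart from the rest of their group. Control replicate 1 had the highest signal of its group for 7 of the 8 members, all but CD14, and rIPCl replicate 1 had the lowest of its group for 7 of the 8, all but CD14. The mean log2 signal of 30 other macrophage genes was 10.36 on control replicate 1 and 9.08 to 9.18 on the other control arrays. For 11 T and NK cell genes it was 7.57 against 6.29 to 6.62, and for 4 neutrophil genes 8.23 against 4.58 to 7.09. For 5 proximal tubule genes it was 12.88 on control replicate 1 and 13.33 to 13.93 on the others. Results are therefore also given without these arrays.

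The C1q chains were higher in rIPCl than in control and lay between both in rIPCe. C1QA, the A chain, had log2 signals of 11.14, 9.79, 9.98, 9.92 and 9.64 on control replicates 1 to 5, 10.06, 11.20, 10.15, 10.67 and 10.80 on the rIPCe arrays, and 10.74, 11.77, 12.27, 12.17 and 11.77 on the rIPCl arrays. In rIPCl, 4 arrays lay above every control and every rIPCe array, whereas rIPCl replicate 1 lay inside the range of rIPCe and below control replicate 1. The log2 difference for rIPCl versus control was 1.65 (SE 0.34), which is 3.14-fold, and the difference for rIPCe versus control was 0.48 (SE 0.34).

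C1QB, the B chain, had log2 signals of 12.60, 11.41, 11.33, 11.27 and 11.66 in control, 11.71, 12.95, 12.55, 12.56 and 12.45 in rIPCe and 12.21, 13.34, 13.73, 13.32 and 13.42 in rIPCl. The same control array was high and the same rIPCl array was low as for C1QA, and the groups overlapped through these arrays. Its log2 differences were 1.55 (SE 0.32) in rIPCl and 0.79 (SE 0.32) in rIPCe, each against control.

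C1QC, the C chain, had log2 signals of 10.50, 9.49, 9.44, 9.60 and 9.34 in control, 9.29, 10.89, 10.43, 10.23 and 10.10 in rIPCe and 10.33, 11.28, 11.84, 11.25 and 10.90 in rIPCl. Again 4 of 5 rIPCl arrays lay above all control arrays, and the lowest rIPCe array lay below all of them. The log2 differences were 1.45 (SE 0.32) in rIPCl and 0.51 (SE 0.32) in rIPCe. From rIPCe to rIPCl the log2 difference was 1.17 for C1QA, 0.76 for C1QB and 0.93 for C1QC, and for each chain 4 of the 5 rIPCl arrays exceeded every rIPCe array.

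Without control replicate 1 the log2 differences for rIPCl versus control were 1.91 for C1QA, 1.79 for C1QB and 1.65 for C1QC. Those for rIPCe versus control became 0.75, 1.03 and 0.72 in the same order, against 0.48, 0.79 and 0.51 with all arrays. Without rIPCl replicate 1 the differences for rIPCl versus control were 1.90, 1.80 and 1.64.

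**Figure D1:**
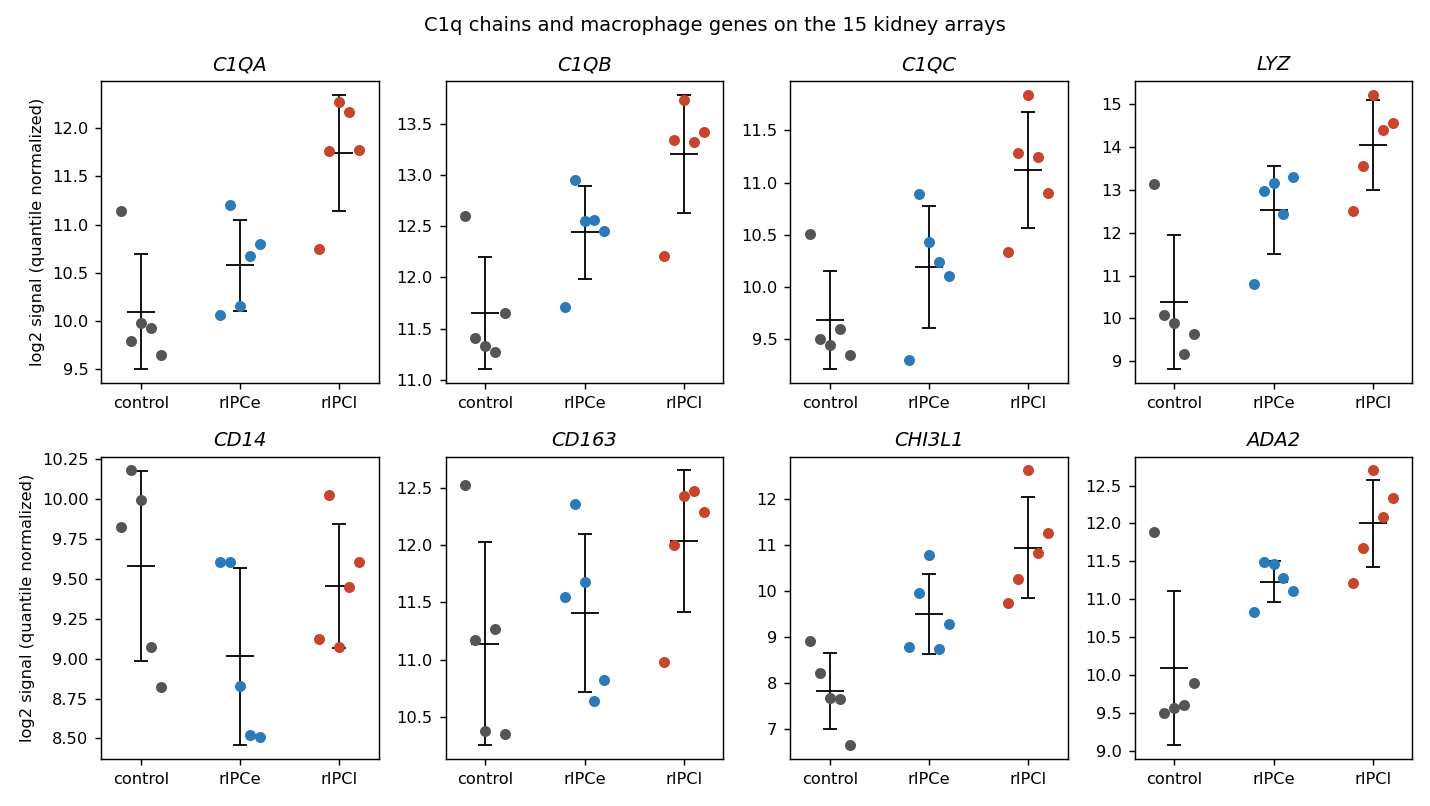
Log2 signals (vertical axes, quantile normalized, a separate scale for each gene) of the 8 genes on the 15 arrays by group; points from left to right in a group are replicates 1 to 5, and bars show the mean and the SD of 5 arrays. Control replicate 1 lies within the range of the rIPCl arrays for C1QA, C1QB, C1QC, LYZ and ADA2 and above it for CD163, and CD14 shows no order of the groups.

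Of the macrophage genes, LYZ encodes lysozyme, which cuts bacterial cell walls and is secreted in large amounts by macrophages. Its log2 signals were 13.13, 10.08, 9.90, 9.18 and 9.63 in control, 10.80, 12.97, 13.17, 12.45 and 13.30 in rIPCe and 12.50, 13.55, 15.22, 14.40 and 14.57 in rIPCl. All preconditioned arrays lay above control replicates 2 to 5, while control replicate 1 lay within the range of rIPCe. LYZ had the largest log2 difference of the 8 genes in both comparisons with control, 3.66 (SE 0.73) in rIPCl, which is 12.7-fold, and 2.15 (SE 0.73) in rIPCe. Its other probes gave 3.67 and 3.38 in rIPCl.

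CHI3L1 encodes a secreted chitinase-like glycoprotein without enzyme activity that is made by macrophages and other cells in inflamed tissue. Its log2 signals were 8.92, 8.22, 7.68, 7.66 and 6.65 in control, 8.77, 9.95, 10.78, 8.73 and 9.29 in rIPCe and 9.75, 10.27, 12.63, 10.82 and 11.27 in rIPCl. It was the only member for which every rIPCl array lay above every control array. The log2 difference was 3.12 (SE 0.56) in rIPCl, which is 8.70-fold, and 1.68 (SE 0.56) in rIPCe, where 3 of the 5 arrays exceeded all control arrays. A second probe gave 3.10 in rIPCl.

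ADA2, a secreted adenosine deaminase of myeloid cells, had log2 signals of 11.89, 9.50, 9.57, 9.60 and 9.90 in control, 10.83, 11.49, 11.47, 11.28 and 11.11 in rIPCe and 11.22, 11.67, 12.70, 12.08 and 12.33 in rIPCl. The rIPCe arrays were close together (SD 0.27, n = 5) and, like the rIPCl arrays, lay above control replicates 2 to 5. Control replicate 1 exceeded every rIPCe array and 2 of the rIPCl arrays. The log2 difference was 1.91 (SE 0.41) in rIPCl and 1.14 (SE 0.41) in rIPCe, and without control replicate 1 these were 2.36 and 1.59.

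CD163, the scavenger receptor for haemoglobin bound to haptoglobin and a common marker of tissue macrophages, had log2 signals of 12.53, 11.17, 10.37, 11.27 and 10.35 in control, 11.55, 12.36, 11.68, 10.64 and 10.82 in rIPCe and 10.98, 12.00, 12.43, 12.47 and 12.29 in rIPCl. Control replicate 1 was the highest of all 15 arrays, so no rIPCl array exceeded all controls. The log2 difference was 0.90 (SE 0.44) in rIPCl and 0.27 (SE 0.44) in rIPCe, and 1.24 and 0.62 without control replicate 1. Its other 3 probes gave 0.55 to 0.78 in rIPCl.

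CD14, the coreceptor for bacterial lipopolysaccharide on monocytes and macrophages, showed no order of the groups. Its log2 signals were 9.83, 10.18, 10.00, 9.07 and 8.82 in control, 9.61, 9.61, 8.83, 8.52 and 8.51 in rIPCe and 9.12, 10.02, 9.07, 9.45 and 9.61 in rIPCl. The log2 difference was -0.12 (SE 0.31) in rIPCl and -0.57 (SE 0.31) in rIPCe. A second probe gave 0.02 in rIPCl, and the sign for rIPCl also turned without control replicate 2, to 0.03, and with slide in the model, to 1.13.

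With the limma fit over all probes and Benjamini-Hochberg adjustment, 6 of the 8 members were called higher in rIPCl than in control (all 3 C1q chains, LYZ, CHI3L1 and ADA2) and 0 lower, where 2.69% of all probes were called higher. All arrays of rIPCl lay above those of control for 1 member, against 2.71% of all probes. In rIPCe versus control 0 of the 8 were called after adjustment, where 0.00229% of probes were called higher, and 4 at an unadjusted p under 0.05 (C1QB, LYZ, CHI3L1 and ADA2), where 5.45% of probes were. The groups overlapped for all 8 members there (0.569% of probes had all rIPCe arrays above control). In rIPCl versus rIPCe 0 were called after adjustment, as for all probes, 4 at an unadjusted p under 0.05 (the C1q chains and CHI3L1), where 2.26% of probes were higher, and the groups overlapped for all 8 (0.374% of probes did not). The genes were chosen with these differences known, and the comparisons share their groups, so nothing is read from the counts. They also depended on single arrays, as did the calls over all probes, which were 2736 with all arrays. The 6 calls became 1 without control replicate 2, control replicate 3 or rIPCl replicate 3 (184, 492 and 263 of all probes). They became 0 without rIPCl replicate 4 or rIPCl replicate 5 (74 and 49 of all probes). At an unadjusted p under 0.05 the members numbered 6 or 7 whichever array was left out, where 12.8% of all probes were higher with all arrays. With slide as a fixed or random block 0 were called (479 and 0 of all probes).

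Within a slide, the comparison of rIPCe with control rests on 3 rIPCe arrays and 1 control array on slide 2, and all 8 members were higher in rIPCe there, by 0.52 to 3.19 on the log2 scale. That control array is replicate 5, the lowest of its group for 5 of the 8 members. On slide 3 the single rIPCl array, the low replicate 1, differed from the mean of the 2 rIPCe arrays by 0.01 for C1QA, -0.29 for C1QB, 0.16 for C1QC and -0.38 for LYZ. The difference was 0.73 for CHI3L1, 0.61 for CD14, 0.25 for CD163 and 0.02 for ADA2, so that 6 of the 8 members were higher on the rIPCl array. No slide held both control and rIPCl arrays.

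**Figure D2:**
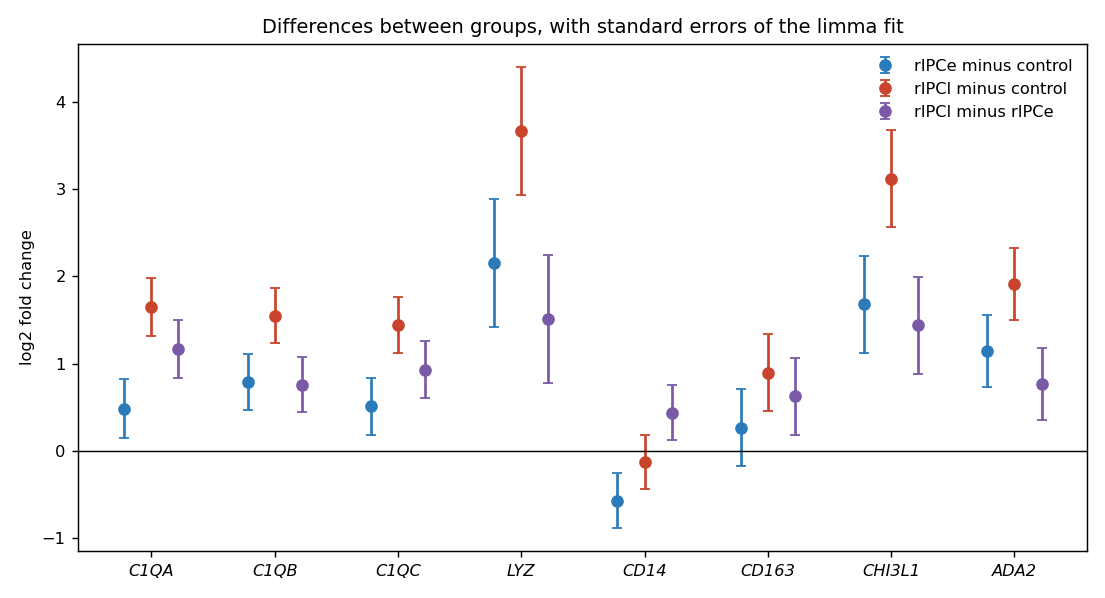
Log2 fold changes (vertical axis) of the 8 genes for the 3 comparisons, from the limma fit on 15 arrays; bars are standard errors. In rIPCl versus control the 3 C1q chains lie at 1.45 to 1.65, LYZ at 3.66 and CHI3L1 at 3.12, and CD14 at -0.12.

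Whether the C1q chains follow the macrophage genes was tested on the deviations of each array from the mean of its own group. This measure does not contain the differences between groups. It can still contain differences between slides, and rIPCl replicate 1 was the only rIPCl array on slide 3. The chains moved together over the 15 arrays, in part through 2 outlying arrays that are described below. Pearson's r with C1QA was 0.883 for C1QB (permutation p 0.00191, Spearman's rho 0.843) and 0.857 for C1QC (permutation p 0.00085, rho 0.771). Between C1QB and C1QC r was 0.913. Here and below a permutation p is that of Pearson's r unless rho is named. The permutation p of rho was 0.00273 for C1QB and 0.00436 for C1QC. Arrays were exchanged only within their groups in the permutations, which were two-sided, and 7 relations with C1QA were tested.

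LYZ followed C1QA most closely among the macrophage members, with r 0.829 (rho 0.771, permutation p 0.00349) and a slope of 1.83 (SE 0.35), in log2 units of LYZ per log2 unit of C1QA. ADA2 had r 0.797 (rho 0.746, permutation p 0.00543) and a slope of 0.98 (SE 0.21). CD163 had r 0.704 (rho 0.629, permutation p 0.0127) and a slope of 0.93 (SE 0.27). CHI3L1 was less close, with r 0.570 (rho 0.557, permutation p 0.0482 for r and 0.0510 for rho), and its second probe gave r 0.513. For CD14 no relation was found (r 0.165, rho 0.043, permutation p 0.592), and its second probe gave r 0.184.

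The 2 arrays farthest from the median in C1QA were control replicate 1, at 1.04 above its group mean, and rIPCl replicate 1, about as far below its own. On control replicate 1 the deviation was 2.75 for LYZ, 1.80 for ADA2 and 1.39 for CD163, and on rIPCl replicate 1 it was -1.55, -0.78 and -1.06 in the same order. CHI3L1 was the highest of its group on the first and the lowest on the second, where its deviation was -1.20. CD14 deviated by 0.25 and -0.33. Without both arrays, and with the group means taken over the 13 arrays left, r with C1QA was 0.709 for C1QC (permutation p 0.0489), 0.620 for C1QB (permutation p 0.106) and 0.530 for LYZ (permutation p 0.177). It was 0.371 for ADA2, 0.232 for CHI3L1, 0.213 for CD163 and -0.08 for CD14 (permutation p 0.255 to 0.797). Of the 6 relations with a permutation p under 0.05 over 15 arrays, only that of C1QC had one without these arrays. The arrays left out were those farthest out in C1QA, so its range became narrower. How far the other relations rest on these arrays can therefore not be told from the loss. Without control replicate 1, r was 0.822 for C1QB, 0.805 for C1QC, 0.715 for LYZ, 0.672 for ADA2, 0.536 for CD163 and 0.464 for CHI3L1. Without rIPCl replicate 1 alone it was 0.822, 0.811, 0.798, 0.770, 0.605 and 0.446 in the same order. Without control replicate 1 alone the slope on C1QA was 1.39 for LYZ, 0.57 for ADA2, 0.71 for CD163 and 0.90 for CHI3L1.

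Within the groups, r between C1QA and LYZ was 0.947 in control, 0.545 in rIPCe and 0.914 in rIPCl, each over 5 arrays and without a test. For CD163 it was 0.877, 0.153 and 0.975, and for CHI3L1 0.801, -0.01 and 0.762. In rIPCe, the group with neither of the outlying arrays, rIPCe replicate 3 had a C1QA deviation of -0.43 but a CHI3L1 deviation of 1.28.

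**Figure D3:**
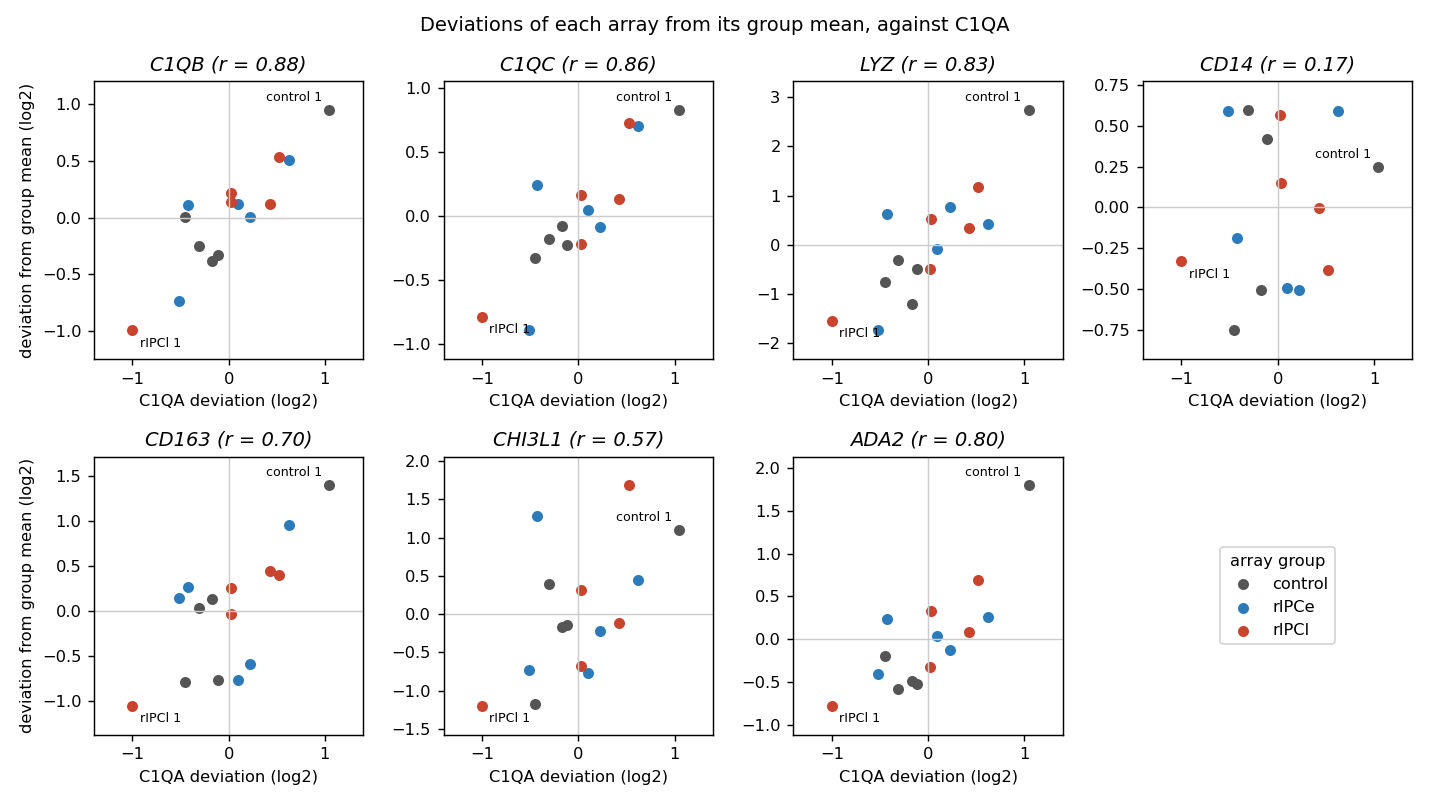
Deviation of each array from its group mean (log2) for C1QB, C1QC and the 5 macrophage genes (vertical axes, separate scales) against that of C1QA (horizontal axes), coloured by group, with Pearson's r over 15 arrays. The points rise together for C1QB, C1QC, LYZ and ADA2, control replicate 1 and rIPCl replicate 1 lie at the ends, and CD14 shows no trend.

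In the limma model of all probes on C1QA, with a mean for each group, 0 of 43602 probes passed an adjusted p of 0.05, and the lowest adjusted p of the members was 0.129 (limma, for C1QB, C1QC and LYZ). At an unadjusted p under 0.05 the slope was positive for 4 of the 5 macrophage members, where 4.17% of all probes had such a positive slope. Without control replicate 1, 2 of the 5 remained under that threshold. With slide as a fixed block 3 of the 5 did (2778 of all probes), and with slide as a random block 4 did (2067 of all probes). CHI3L1 had a slope of 0.78 with the fixed block (limma, unadjusted p 0.140). After adjustment 0 macrophage members had a positive slope with either block, where 14 of all probes had one with the fixed block and 0 with the random block. With C1QB in place of C1QA, 2 macrophage members passed the adjusted threshold, LYZ with a slope of 2.11 (limma, adjusted p 0.0140) and ADA2 with 1.14 (adjusted p 0.0256), where 0.248% of all probes had such a positive slope. With C1QC 0 macrophage members passed (limma, adjusted p 0.0709 for LYZ and 0.152 for ADA2), where 0.124% of all probes did. Across the 15 pairs of a C1q chain with a macrophage member, r ranged from 0.047 for C1QB with CD14 to 0.898 for C1QB with LYZ, with a median of 0.704. Pairs of macrophage members had a median r of 0.652, with LYZ and ADA2 at 0.907, and CD14 had r 0.013 with LYZ, 0.007 with ADA2 and 0.444 with CD163. The C1QA deviations had r 0.500 with the log2 median signal of the array, 0.244 with its percentage of spots well above background and -0.354 with its number of outlier spots, and the part of these in the relations was not tested.

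The 5 genes outside the set whose deviations were most like those of C1QA, among 2378 genes well above background on all arrays, were TLR2 (r 0.873), CCRL2 (0.871), STX11 (0.869), C2 (0.866) and FCGR3A (0.866). TLR2 is a receptor for bacterial lipoproteins, CCRL2 a chemerin-binding receptor, STX11 a syntaxin of cytotoxic granule release, C2 the complement protease precursor that acts after C1s, and FCGR3A an Fc receptor for IgG. These r values are a description over 15 arrays that share 3 group means and the outlying arrays.

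Of a list of 42 other macrophage genes, 30 had a probe. In rIPCl versus control 23 of the 30 had a higher mean, as did 48.5% of all genes with a symbol. The median log2 difference of the 30 was 0.85, where the median of all probes was -0.03. Of the 23, CD209 was well above background on 0 control arrays, and its other probe gave -1.65. SIGLEC1 was well above background on 1 control array. By limma 4 of the 30 were called higher after adjustment, against 2.69% of all probes, and 2 lower, against 3.58%. APOE, the lipid carrier that macrophages secrete, was 2.04 higher (SE 0.50, adjusted p 0.0353). TLR2 was 1.13 higher (SE 0.27, adjusted p 0.0342). MRC1, the mannose receptor, was 1.01 higher (SE 0.21, adjusted p 0.0244), and each of its rIPCl signals exceeded each control signal, as for 2.71% of all probes. SPI1, which encodes the myeloid transcription factor PU.1, was 1.54 higher (SE 0.43, adjusted p 0.0494), but was well above background on only 1 of 5 control arrays. FOLR2, a folate receptor of resident macrophages, fell by 1.27 (SE 0.34, adjusted p 0.0422), and CTSB, a lysosomal protease that kidney epithelium also expresses, fell by 0.82 (SE 0.20, adjusted p 0.0347). Both went against the direction of the C1q chains.

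Close to the threshold were CYBB, the catalytic subunit of the phagocyte NADPH oxidase, at 1.87 (adjusted p 0.0531), TYROBP, a signalling adaptor of myeloid receptors, at 1.30 (adjusted p 0.0526), ITGB2, the shared chain of leukocyte integrins, at 1.51 (adjusted p 0.0506) and CD86, a costimulatory ligand, at 1.30 (adjusted p 0.0526). The count of 6 called genes rose to 17 without control replicate 1 and to 13 without rIPCl replicate 1. Over all probes the calls rose from 2736 to 3273 and 4913 there. The count fell to 1 without control replicate 4 and to 2 without rIPCl replicate 2 (892 and 985 of all probes). It was 0 without control replicate 2 or 3 or rIPCl replicate 3, 4 or 5 (184, 492, 263, 74 and 49 of all probes). With slide as a fixed or random block it was 0 as well (479 and 0 of all probes). In rIPCe versus control 0 of the 30 were called after adjustment, 2 were higher and 4 lower at an unadjusted p under 0.05 (5.45% and 8.65% of all probes), and the median log2 difference was 0.42.

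C1q acts with other complement proteins. A list of 16 genes, called partners here, held genes of the C1 complex, the next steps of the classical pathway, C1q-binding proteins and the lectin pathway. Of these 16 genes, 11 had a probe. By limma 3 were called higher in rIPCl than in control (C1S, SERPING1 and C2), against 2.69% of all probes, and 0 lower, against 3.58%. C1S, a protease of the C1 complex, was 2.15-fold higher (SE 0.20 on the log2 scale, adjusted p 0.0210). SERPING1, the inhibitor of C1r and C1s, was higher by 1.06 (SE 0.20, adjusted p 0.0221) and C2 by 1.76 (SE 0.49, adjusted p 0.0483). For C1S and SERPING1 all 5 rIPCl arrays lay above all controls, as for 2.71% of all probes. The other probe of C2 gave 0.67. C4A, the next substrate of C1s, differed by 0.16 (SE 0.39), and CALR, the chaperone calreticulin that also binds C1q on cell surfaces, by 0.17 (SE 0.19). Among the lectin pathway genes, MASP1 differed by 0.63, MASP2 by 0.43, FCN1 by 1.54 and FCN2 by 1.57, none past the adjusted threshold at the probe used. The other probe gave 1.69 for MASP1, -0.11 for MASP2 and 1.16 for FCN2. MBL1 was not well above background on any array and MBL2 on none of the rIPCl arrays. Without rIPCl replicate 4 or 5 the count of 3 became 0 (74 and 49 of all probes, against 2736). With slide as a fixed or random block it also became 0 (479 and 0 of all probes). Without control replicate 2 or rIPCl replicate 3 it became 1 (184 and 263 of all probes).

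The partners differed in how they followed C1QA within groups. C2 had r 0.866, while SERPING1 had 0.487, C1S 0.470, CALR 0.191 and C4A -0.374. Of the other macrophage genes, 25 of 30 had a positive r, with a median of 0.632 and a range from -0.343 for TREM2 to 0.873 for TLR2. FCGR3A (0.866), CYBB (0.846), AIF1 (0.830) and APOE (0.822) were among the closest, while FOLR2 had -0.241 and CTSB -0.233. At an unadjusted p under 0.05 in limma 17 of the 30 had a positive slope, against 4.17% of all probes, and 0 passed the adjusted threshold. How far the r values and slopes of both lists rest on control replicate 1 and rIPCl replicate 1 was not tested.

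**Figure D4:**
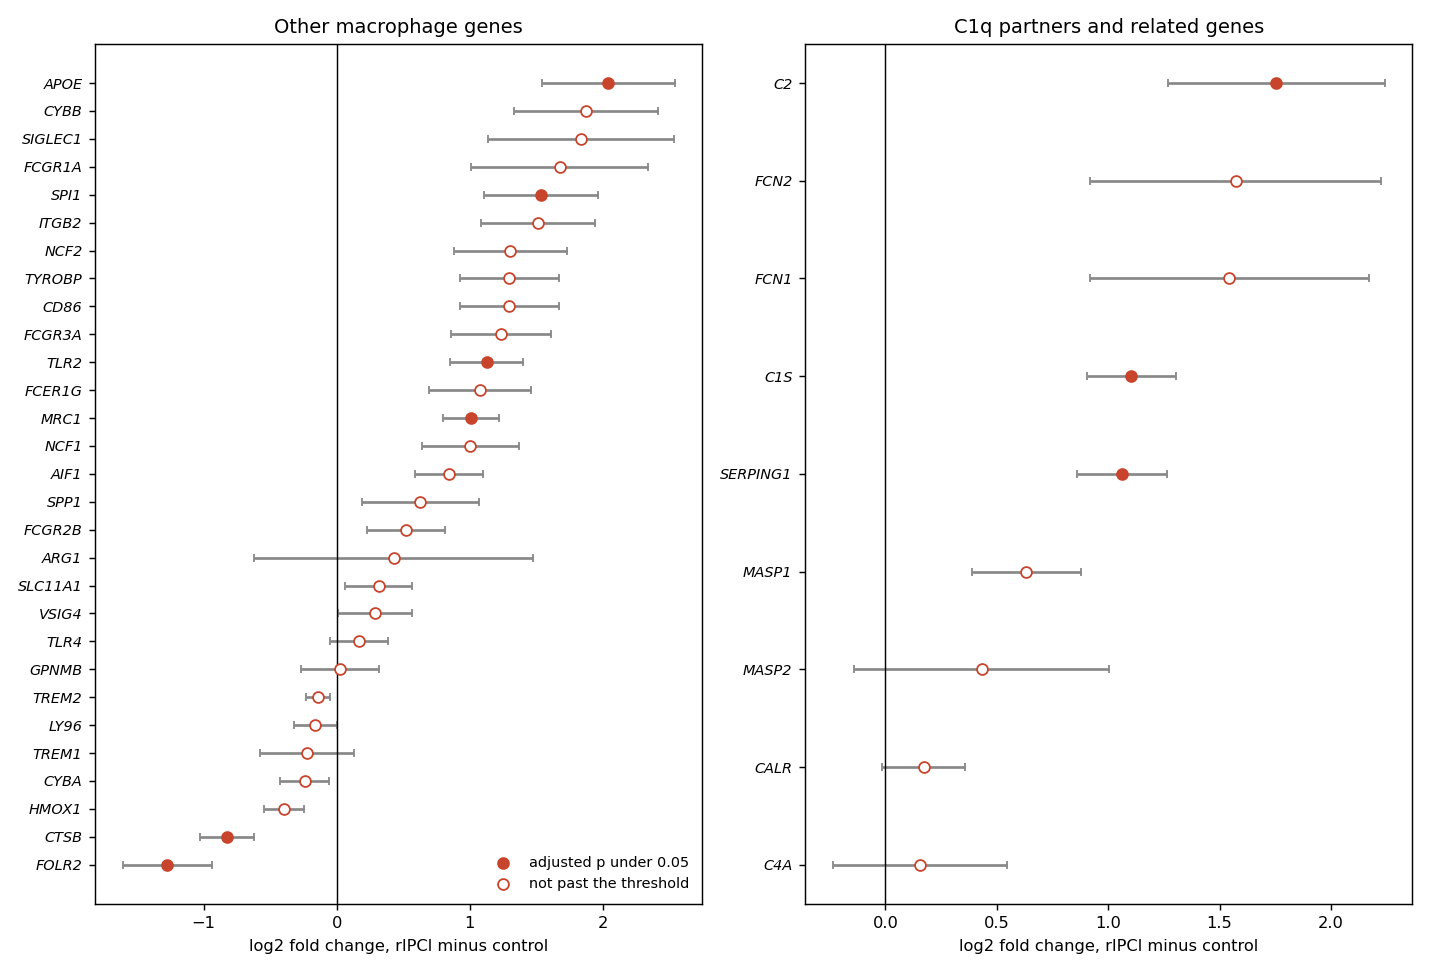
Log2 fold changes (horizontal axes) for rIPCl versus control of 29 other macrophage genes and 9 genes of the partner list, with standard errors of the limma fit. Filled points passed an adjusted p of 0.05. CD209, MBL1 and MBL2 are left out, since in at least 1 of both groups no array was well above background. APOE, SPI1, TLR2, MRC1, C2, C1S and SERPING1 are filled on the higher side, FOLR2 and CTSB on the lower side.

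Markers of other cells moved with C1QA too. All 11 measured T and NK cell genes were higher in rIPCl than in control, with a median log2 difference of 1.15, 0 past the adjusted limma threshold and 9 at an unadjusted p under 0.05 (12.8% of all probes were higher at that p), and all 11 had a positive r with C1QA within groups (0.457 to 0.832, median 0.679). Their mean log2 signal was 6.29 to 7.57 in control, 6.05 to 7.80 in rIPCe and 6.86 to 9.25 in rIPCl. None of the defining CD3 chains was at background throughout: CD3E was well above background on all 15 arrays and CD3D on 12. CD4 was well above background on 8 arrays, 1 of them a control, and IL7R on 6, of which 0 were controls. The other probe of CD4 gave -0.30 in rIPCl versus control. Of 4 B and plasma cell genes, CD79A (1.23, limma adjusted p 0.0407) and BLNK (1.02, adjusted p 0.0244) were called higher in rIPCl, where 2.69% of all probes were.

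Neutrophil genes gave another picture. For 4 of them the median log2 difference was 0.11, 0 were called, and r with C1QA ranged from -0.089 to 0.391. The 4 fibroblast genes were all higher in rIPCl than in control by their means, with a median log2 difference of 0.93, and had a median r with C1QA of 0.123. LUM, the matrix proteoglycan lumican, was called at 1.49 (limma, adjusted p 0.0450), where 2.69% of all probes were called higher. Of the 4 endothelial genes 2 were higher (median 0.21), with a median r of 0.187, and ENG, the endothelial receptor endoglin, was called at 0.77 (limma, adjusted p 0.0433). The 5 proximal tubule genes were all lower in rIPCl than in control by their means at the probe used (median -0.42, 0 called). At an unadjusted limma p under 0.05, 2 of them were lower, where 11681 of 43603 probes differed in either direction. The other probe of SLC22A6 gave 0.09. All 5 genes had a negative r with C1QA (-0.339 to -0.017). The part of these other cells in the C1q and macrophage differences was not tested.

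**Figure D5:**
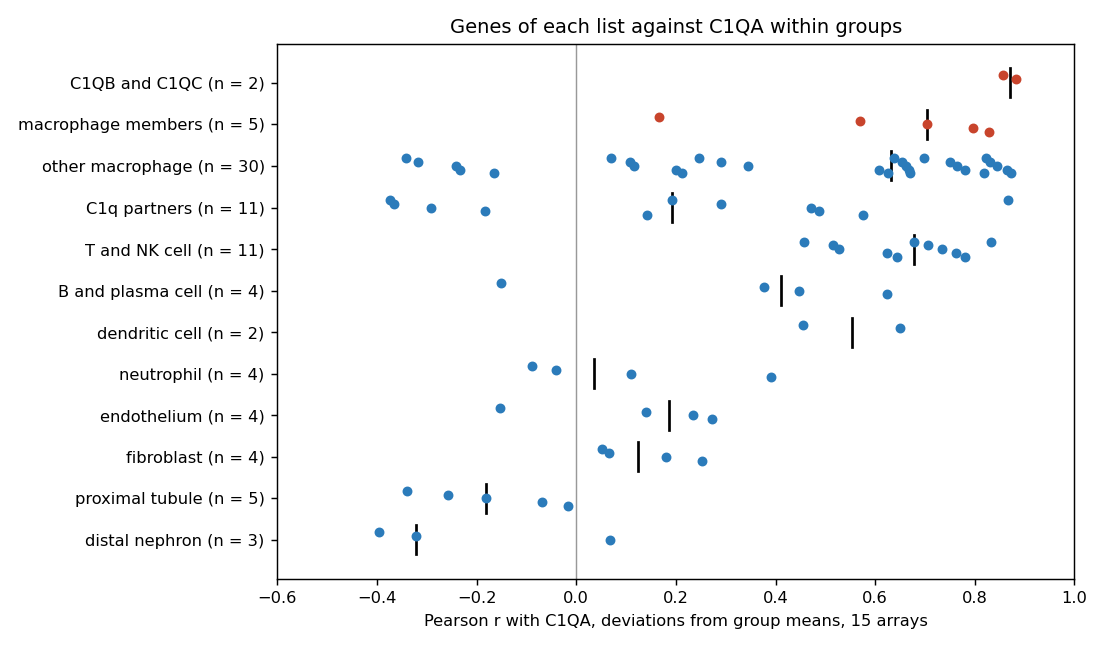
Pearson's r (horizontal axis) of each gene with C1QA, from deviations from group means over 15 arrays, by gene list (vertical axis, number of genes in brackets); black lines are medians. The median is 0.704 for the macrophage members, 0.632 for the other macrophage genes, 0.679 for T and NK cell genes and 0.035 for neutrophil genes. All values include control replicate 1 and rIPCl replicate 1.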

How the data were processed

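The authors deposited Agilent Feature Extraction 11.0.1.1 output for 15 single-colour porcine arrays, an intensity per spot on a linear scale, background-corrected by the scanner software and not normalized between arrays. The deposited value table holds the same intensity per probe and served as an alternative. Control spots (1417 per array) were left out and outlier spots (1 to 70 per array) were treated as missing. Processed signals were transformed to log2, quantile normalized and averaged per probe, as the study's methods name for log2 and quantile normalization. Symbols came from RefSeq accessions (6686 of 43603 probes), and a gene takes the value of its probe with the highest mean. No spot was saturated, and no arrays were identical (r 0.967 to 0.992). Their number limits the precision.

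The linear model, a mean per group over the whole probe set, used lmFit and eBayes of limma (version 3.58.1, R version 4.3.3), and p values were adjusted over all probes. C1QA was then added as a term. Permutations exchanged arrays within groups (1e+05 draws). Figures were drawn with matplotlib 3.10.9. The fits were tested on simulated data with independent noise per probe. These data held no slide differences and no outlying arrays, so the test does not bear on either.

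The members and gene lists were chosen with earlier results of these data known. Named genes were all members, any gene of the other macrophage and C1q partner lists, and the 5 genes most like C1QA; marker genes of other cells given by name were chosen after their values were seen. Alternatives were the 75th percentile, normexp (offset 50) on the median signal, the value table, a filter on dim probes, the mean of a gene's probes, slide as a fixed or random block, the replicate number as a block, the methods' t-test with a fold change of at least 2, only the groups compared, each array left out and another C1q chain.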

Additional observations from a re-analysis of the deposited data

Results flagged for a closer look

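For 5 of 24 sets of 5 arrays (8 members in 3 groups), 1 array lay farther from its group than Dixon's 95% limit of 0.71 allows, and chance alone marks about 1 in 20 such sets. In control, replicate 1 stood apart for C1QA at a log2 signal of 11.14 (the nearest control array had 9.98), for C1QC at 10.50 (nearest 9.60), for LYZ at 13.13 (nearest 10.08) and for ADA2 at 11.89 (nearest 9.90). In rIPCl, replicate 1 stood apart for C1QB at 12.21 (nearest 13.32). As the members vary together, these sets are not independent of each other.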

How the results depend on the processing

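The direction of the members' differences held under most alternatives, and the calls of rIPCl versus control did not hold under all of them. Subtracting the 75th percentile, normexp, the value table, the filter on dim probes and the mean of a gene's probes left the members' 6 adjusted calls at 6, and the fit on only the groups compared gave 5. The methods' t-test gave 1, or 6 when a 2-fold difference with p below 0.05 before adjustment was required (2194 probes in all, 1548 after adjustment). Slide as a block and as a random block gave 0 each. Where slide was a block, the members under an unadjusted p of 0.05 numbered 1 in rIPCl versus control (against 6), 2 in rIPCe versus control (CHI3L1 and CD163, against 4) and 0 in rIPCl versus rIPCe (against 4), and with the random block the last count was 1. CD14 turned to 1.13 (rIPCl versus control) and 0.52 (rIPCe versus control) with slide as a block and to 0.048 (rIPCl versus control) with the random block, and in rIPCl versus rIPCe C1QB turned to -0.29 and LYZ to -0.38 with slide as a block. With slide as a fixed block, slides 1 and 4 add nothing to these differences, since each holds a single group. The values for rIPCe versus control and rIPCl versus rIPCe equal those within slides 2 and 3. Those for rIPCl versus control thus rest on control replicate 5 and rIPCl replicate 1, joined through the rIPCe arrays. Whether the slides themselves differ was not tested.

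The other macrophage genes called changed from 6 to 13 with the 75th percentile, 9 with normexp, 12 with the filter on dim probes, 3 with only the groups compared, 2 with the t-test and 0 with either slide model, and the 3 complement partners also to 0 with either slide model. With the 75th percentile 2151 probes were called higher and 5583 lower, against 1173 and 1563 with quantile normalization, and the median over all probes moved from -0.03 to -0.11. Over all probes the calls of rIPCl versus control numbered 479 with slide as a block and 0 with the random block, 987 with the replicate block and 1548 with the t-test, against 2736. Slide as a block gave 183 higher and 1006 lower probes in rIPCe versus control (against 1 and 0) and 97 higher and 15 lower in rIPCl versus rIPCe (against 0 and 0). With C1QB in place of C1QA, 2 macrophage members passed the adjusted threshold within groups, against 0 with C1QA and 0 with C1QC.

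Replicate numbers do not pair the pigs: of 15 pairs of arrays with the same number, 0 had deviations that correlated over 0.1 (r -0.262 to 0.0741). With the number as a replicate block, 1 member, CHI3L1, and 3 other macrophage genes were called in rIPCl versus control, and 0 members in the other comparisons.

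Leaving out each array in turn, the members called in rIPCl versus control ranged from 0 to 6, the other macrophage genes from 0 (without control replicate 2, for example) to 17 (without control replicate 1), the complement partners from 0 to 4 and the macrophage members with an adjusted slope on C1QA from 0 to 1 (without rIPCe replicate 3). At an unadjusted p under 0.05 the members ranged from 2 (without rIPCe replicate 1) to 6 in rIPCl versus rIPCe, and the macrophage members with a slope on C1QA from 2 (without control replicate 1) to 4. CD14 in rIPCl versus control ranged from -0.31 to 0.026. The number of arrays limits the precision, and every member was well above background on every array at the probe used.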
